A study of Glycine max with 18 samples.

Results

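The genes described here are 5 soybean genes of plastid fatty acid synthesis, ACCB-2, ACCC-2, ACCC-3, SAD2 and SACPD-C, followed across 9 groups of seed samples. They were chosen by name, as the acetyl-CoA carboxylase subunits and stearoyl-ACP desaturases on a given list, and were matched to the Affymetrix Soybean Genome Array through the array's probe-gene table (symbol or synonym). The choice was made with earlier results of these data known. They are 5 of 6029 genes that have a soybean probe set with exactly 1 gene symbol, and all 5 passed the filter on low signals. A further 6 genes of the same pathway had a probe set of their own and serve for comparison.

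In plants the fatty acids of membranes and seed oil are built in the plastid. Acetyl-CoA carboxylase makes malonyl-CoA in the committed step, and its plastid form is assembled from separate subunits: a biotin carboxyl carrier protein (ACCB), a biotin carboxylase (ACCC), which loads the biotin of that carrier, and carboxyltransferase subunits (ACCA among them). Ketoacyl-ACP synthases (KAS) then lengthen the chain on acyl carrier protein (ACP), and stearoyl-ACP desaturase, a soluble plastid enzyme, turns stearoyl-ACP into oleoyl-ACP, the precursor of the unsaturated fatty acids of soybean oil.

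The study measured gene expression in seed compartments of soybean cultivar Asgrow A3237 at the cotyledon stage of the embryo, in seeds whose length was between 2.5 and 3.0 mm. The plants had a day of 16 h light and 8 h dark at 22 °C. All groups share this cultivar, stage and growth regime. The captured groups differ in compartment, and whole seed differs from them in preparation as well. Each of the 9 groups has 2 arrays (18 in all). The 8 captured compartments were the embryo proper, which forms the cotyledons and axis; the suspensor, the stalk that anchors it; the endosperm; and 5 parts of the maternal seed coat, namely endothelium, inner and outer integument, epidermis, and hilum, the scar by which the seed was attached. These were cut by laser from 8 µm paraffin sections. The last group was whole seed, ground in liquid nitrogen, with RNA isolated by another reagent. Every array started from 2 ng of RNA that was amplified before labelling. The labels do not say how many seeds or plants stand behind an array, so the p-values measure the spread between these arrays, which may be technical. In such bulk samples, fewer cells of a type and less RNA per cell cannot be told apart.

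Values are the authors' linear signals per probe set, scaled to a common mean on each array. A fold is a ratio of geometric means of 2 arrays a group, with the standard error (SE) of its log2 value from limma, and a gene is called changed at a Benjamini-Hochberg adjusted p under 0.05 over all 31961 soybean probe sets tested. On the 18 arrays, the share of soybean probe sets that reached a signal of 100 was 56.7% to 67.5%, and the 95th percentile of the probe sets for other organisms, a measure of background, ran from 107 to 219. The labels were set against 5 lists of marker genes. The summed signal of 4 markers of green tissue and lateral organs (CAB3, RCA14, PETC and YABBY11) was 47348 to 50504 in embryo proper, above every other group, and only 559.5 to 690.2 in endosperm. The 3 proanthocyanidin genes that mark an endothelium summed to 1381.1 to 1615.4 in the arrays labelled endothelium, against 66500 to 87925 in epidermis and 93668 to 97448 in hilum, so these markers do not set the endothelium arrays apart. Of 8 seed protein markers, summed to 7534.6 to 7946.6 in embryo proper and 4362.1 to 5375.7 in inner integument, A1 was highest in embryo proper (4581.0 and 4679.2) and BBI-1 in inner integument (3758.0 and 4987.3). The 5 outer seed coat markers summed to 42168 to 65319 in epidermis and 46625 to 60300 in outer integument. High sums were not particular to these, with 38974 to 44932 in hilum, 38375 to 38801 in endothelium and 34343 to 34968 in inner integument. PRX2 made up most of the endothelium sum (35725.6 and 37671.4). In suspensor the sum was 22224 to 28424, with PRX2 at 15303.9 and 14603.0. PRP2 was higher there than in any other group (9174.9 and 7068.2), and PRP1 differed between the suspensor arrays (3358.5 and 247.8). Ep was highest in whole seed (4450.1 and 3493.1), with only 126.7 and 139.1 in epidermis. The phloem marker SEO-F3 was highest on average in outer integument (483.9 and 1210.6). The part of these markers in the differences described here was not tested. Suspensor and endosperm have no marker here.

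ACCB-2 encodes the biotin carboxyl carrier subunit of the plastid carboxylase and showed the steepest pattern of the 3 carboxylase genes. Its signal was 11615.6 and 11304.1 in embryo proper and 9684.8 and 8342.8 in endosperm, against 5281.2 and 4506.1 in whole seed. It was 3046.7 and 3322.2 in suspensor, 2522.2 and 3572.3 in hilum, 2666.6 and 2772.0 in outer integument, 2829.6 and 1338.4 in epidermis, and 1474.5 and 1199.6 in endothelium. In inner integument it was 344.1 and 198.1. Both arrays of embryo proper were above all other arrays, and both of inner integument below all others. The group mean in embryo proper was 43.9 times that in inner integument.

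In the order of the 9 group means of ACCB-2, 2 of the 8 steps between neighbours passed the test. Endosperm was 1.84-fold above whole seed (adjusted p = 0.0441), and endothelium was 5.09-fold above inner integument (adjusted p = 6.04e-05). The step from endosperm to whole seed was lost in 8 of 18 runs with 1 array left out, among them those without any 1 of its 4 arrays. It was also lost under 4 of 9 other alternatives. The step above inner integument passed under every alternative. The steps from whole seed down to endothelium did not pass one by one. At the top, endosperm minus embryo proper was -0.35 on the log2 scale, with a 95% interval of -1.01 to 0.31 (adjusted p = 0.523), so these data leave room for endosperm being lower by up to 1.01 log2 units. Of the 36 pairs of groups, 25 differed for ACCB-2. Among all probe sets tested, the share called ranged over those pairs between 8.31% (epidermis against hilum) and 31.1% (endosperm against inner integument).

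ACCC-2 encodes a biotin carboxylase subunit. It is read from a probe set whose suffix marks possible binding of related transcripts. Its signal was 23531.6 and 26166.9 in embryo proper and 18391.5 and 22385.9 in endosperm. It was 9619.4 and 11231.8 in endothelium, 10079.5 and 7342.0 in whole seed, 7183.4 and 8901.9 in suspensor, and 7695.5 and 5637.9 in epidermis. The lowest values were 5499.3 and 6920.8 in inner integument, 3759.4 and 5958.7 in outer integument, and 4862.7 and 3795.6 in hilum. Embryo proper and endosperm each lay above the other 7 groups without overlap, and the groups from endothelium to hilum overlapped in a chain. Only the step from endosperm to endothelium passed the test among the 8 between neighbours (1.95-fold higher in endosperm, adjusted p = 0.00669). It was lost without endosperm array 2 (adjusted p = 0.0793) or endothelium array 1 (adjusted p = 0.0672). In all, 20 of the 36 pairs of groups differed for ACCC-2, and the highest group mean was 5.78 times the lowest.

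The other probe set of ACCC-2 also had embryo proper and endosperm at the top, but inner integument in place of hilum at the bottom. It read 7027.8 and 6438.6 in embryo proper and 6187.3 and 5478.0 in endosperm, against 762.4 and 892.0 in inner integument and 1188.6 and 823.1 in hilum. The probe sets differed most in inner integument, where the gene was 2.55-fold lower than the mean of the other 7 compartments by this probe set (adjusted p = 3.79e-05) and 1.49-fold lower by the one read here (adjusted p = 0.0259). In endothelium they differed in sign, at -0.11 and 0.28 log2 units, and neither passed the test.

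ACCC-3 encodes another biotin carboxylase, measured by its own probe set. Its signal was 21360.0 and 21874.5 in embryo proper and 15960.3 and 14468.7 in endosperm. In the middle came outer integument with 9379.2 and 10801.6, endothelium with 8663.1 and 9980.4, whole seed with 9631.7 and 8018.2, epidermis with 8450.5 and 7799.4, and hilum with 8061.6 and 7159.2. Suspensor had 5347.3 and 8621.4 and inner integument 4525.0 and 4155.1. As with ACCB-2, embryo proper was above all other arrays and inner integument below them. Endosperm was 1.51-fold above outer integument (adjusted p = 0.0348) and suspensor 1.57-fold above inner integument (adjusted p = 0.0232), the 2 of 8 neighbouring steps that passed. The first was lost without any 1 of its 4 arrays and under 3 of 10 other alternatives. The second was lost without either inner integument array or suspensor array 2, and under 2 of 10 other alternatives. Endosperm against embryo proper did not pass, at -0.51 log2 units with a 95% interval of -0.94 to -0.08 (adjusted p = 0.0887), although the arrays did not overlap. For ACCC-3, 21 of the 36 pairs differed, and the highest mean was 4.99 times the lowest.

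SAD2 encodes a stearoyl-ACP desaturase (synonyms FAB2.2 and SACPD in the gene table) and had its top in another place, the suspensor. Its signal was 3612.1 and 4613.7 in suspensor and 3442.1 and 3227.7 in embryo proper. It was 2096.4 and 1691.6 in endothelium, 1325.9 and 1750.9 in endosperm, and 1464.5 and 980.9 in whole seed. It was 870.7 and 1295.6 in outer integument, 1336.1 and 768.2 in epidermis, 820.6 and 1176.9 in hilum, and 904.9 and 987.7 in inner integument. All 4 arrays of the embryo (embryo proper and suspensor) lay above the other 14, and the values from endosperm downward overlapped in a chain. None of the 8 steps between neighbours passed the test, whereas 15 of the 36 pairs did, and the highest mean was 4.32 times the lowest. Embryo proper against suspensor was -0.29 log2 units, with a 95% interval of -0.96 to 0.38 (adjusted p = 0.59).

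Another probe set is assigned both to SAD2 and to ACPD, a further desaturase gene (synonyms SAD1 and SACPD-B), so its signal cannot be split between them. It too was highest in suspensor, at 3520.8 and 5794.6, with 1889.7 and 2787.1 in embryo proper. Endosperm, at 2122.1 and 1392.2, overlapped embryo proper here, and endosperm against embryo proper did not pass by this probe set (adjusted p = 0.535).

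SACPD-C, the other stearoyl-ACP desaturase gene (synonym FAB2.3), is known for mutants whose seed oil is rich in stearic acid. Its signal was 2628.0 and 3564.2 in endosperm, 1612.5 and 1103.5 in whole seed, and 1172.8 and 1160.0 in embryo proper. It was 505.8 and 1843.5 in inner integument, 651.0 and 760.2 in outer integument, 382.3 and 619.2 in endothelium, and 468.2 and 374.2 in epidermis. Suspensor had 152.9 and 676.4, and hilum 78.2 and 60.6. Both endosperm arrays were above all others and both hilum arrays below all others. The 2 arrays were far apart in inner integument and in suspensor, by 4.42 times in suspensor. Suspensor array 1 and both hilum arrays were under the background percentile of their arrays, and hilum therefore gives only a bound.

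Of the 8 steps between neighbouring means of SACPD-C, 1 passed, from suspensor to hilum (4.67-fold as measured, adjusted p = 0.00805). Its size is not set, since 1 suspensor array and both hilum arrays were under background, and leaving out 1 suspensor array gave 9.83-fold (array 1 out) or 2.22-fold (array 2 out). The call was lost without suspensor array 2 (adjusted p = 0.166) or hilum array 2 (adjusted p = 0.0594). Of the 36 pairs, 15 differed. Endosperm was at least 15.1-fold above hilum (adjusted p = 1.09e-06). It was 7.31-fold above epidermis (adjusted p = 0.0012), 6.29-fold above endothelium (adjusted p = 0.00227) and 4.35-fold above outer integument (adjusted p = 0.00956), the last of these being lost without endosperm array 2 (adjusted p = 0.0784) or outer integument array 1 (adjusted p = 0.064). Endosperm was 3.17-fold above inner integument (adjusted p = 0.0377), a difference that fell to 1.66-fold without inner integument array 1. This call was also lost under 4 of 10 other alternatives.

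**Figure D1:**
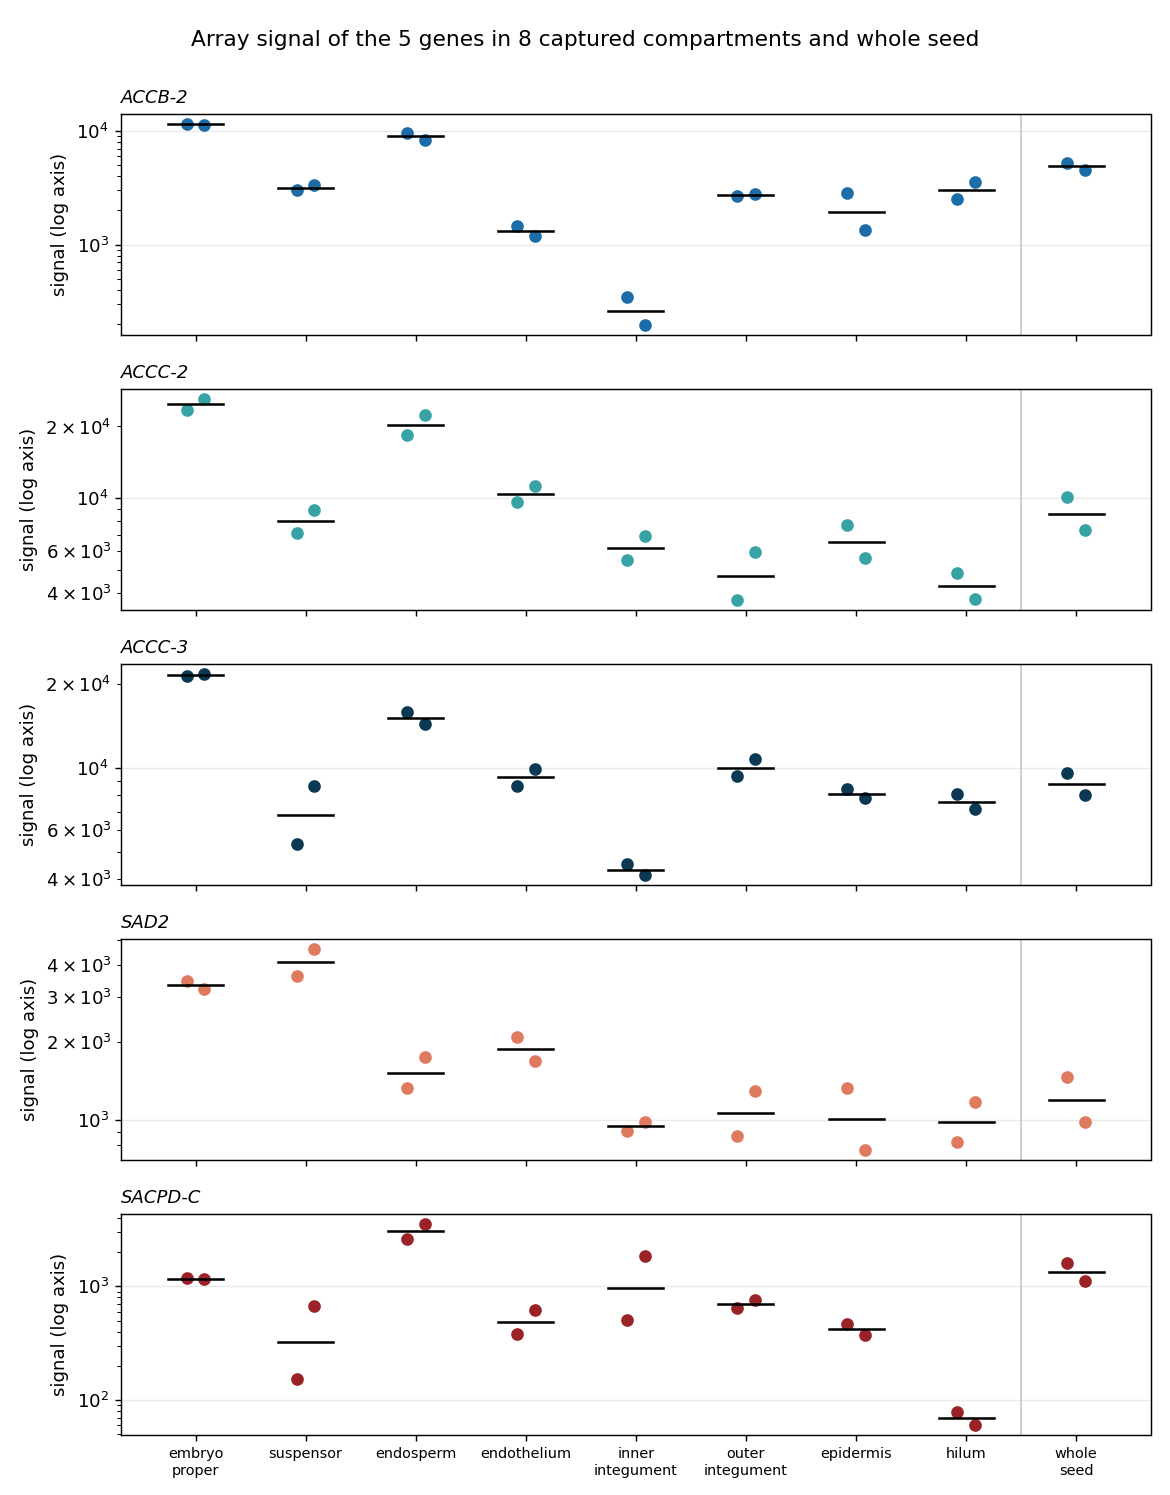
Signal of each of the 5 genes on each array, on a log axis, with the 9 groups along the horizontal axis; points are arrays and the black bar is the geometric mean of the 2. The carboxylase genes ACCB-2, ACCC-2 and ACCC-3 peak in embryo proper with endosperm next, SAD2 peaks in suspensor at 3612.1 and 4613.7, and SACPD-C peaks in endosperm at 2628.0 and 3564.2.

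The desaturase genes thus had different groups at the top, though neither top passed against the next group (SAD2 adjusted p = 0.59, SACPD-C adjusted p = 0.152). The pair suspensor and endosperm was taken from those tops, so its tests describe the order and are no independent support for it. SAD2 was 2.68-fold higher in suspensor than in endosperm (log2 1.42 ± 0.32, adjusted p = 0.00283). SACPD-C was 9.52-fold lower in suspensor than in endosperm (log2 -3.25 ± 0.59, adjusted p = 0.000429). In both genes the 2 arrays of one group did not overlap the 2 of the other. The shared SAD2 and ACPD probe set gave 2.63-fold higher in suspensor (adjusted p = 0.0119). Both calls kept their direction and passed under all 28 alternative settings, and without suspensor array 1, which was under background, SACPD-C was still lower by 2.18 log2 units. The 3 carboxylase genes were also lower in suspensor than in endosperm, by 2.83-fold for ACCB-2 (adjusted p = 0.00161), 2.54-fold for ACCC-2 (adjusted p = 0.000487) and 2.24-fold for ACCC-3 (adjusted p = 0.000349). So 4 of the 5 genes were lower in suspensor and 1 higher, where 12.1% and 11.8% of all probe sets tested were lower and higher.

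Each compartment was next set against the mean of the other 7. Since the genes were chosen with earlier results of these data known, the counts below describe them and are no independent test. In embryo proper 4 of the 5 genes were higher and 0 lower, where 12.3% of all probe sets tested were higher and 11.2% lower. ACCB-2 was 5.56-fold higher (log2 2.48 ± 0.24, adjusted p = 3.26e-07), ACCC-2 3.29-fold (log2 1.72 ± 0.19, adjusted p = 1.35e-06), ACCC-3 2.62-fold (log2 1.39 ± 0.16, adjusted p = 1.95e-06) and SAD2 2.35-fold (log2 1.23 ± 0.24, adjusted p = 0.000845). SACPD-C missed the threshold at 2.27-fold (log2 1.18, 95% interval 0.25 to 2.12, adjusted p = 0.0625). The median of the 5 was 1.39 log2 units, beside -0.10 over all probe sets tested. The summed signal of the green tissue and lateral organ markers was highest in the same arrays, most of it from CAB3 (35785.8 and 38522.1). Of these markers, RCA14 (6050.4 and 5143.2) overlapped inner integument (5166.0 and 4597.7).

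In endosperm 4 of the 5 genes were also higher and 0 lower, where 15.1% of all probe sets were higher and 15.4% lower, with a median of 1.39 beside -0.10 over all. SACPD-C led with 6.85-fold (log2 2.78 ± 0.44, adjusted p = 9.11e-05), or 5.87-fold with hilum set at its background. It was followed by ACCB-2 with 4.21-fold (adjusted p = 2.18e-06), ACCC-2 with 2.61-fold (adjusted p = 1.36e-05) and ACCC-3 with 1.75-fold (adjusted p = 0.000528). SAD2 was the exception at -0.06 log2 units (95% interval -0.57 to 0.45, adjusted p = 0.876). CAB3, RCA14 and PETC were at their lowest in endosperm, beside the high carboxylase signals there. YABBY11 was under 50, the value to which low signals were raised, in both suspensor (14.4 and 17.1) and endosperm (26.1 and 33.5). No order between these groups can be read from it. The part of these markers was not tested.

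The suspensor gave a mixed picture, with 1 gene higher and 1 lower where 12.7% and 14.3% of all probe sets were. SAD2 was 2.96-fold higher (log2 1.56 ± 0.24, adjusted p = 6.53e-05). ACCC-3 was 1.43-fold lower (log2 -0.52 ± 0.16, adjusted p = 0.0178), a call that was lost without suspensor array 1 (log2 -0.17, adjusted p = 0.565). ACCB-2 was at 0.36, ACCC-2 at -0.15 and SACPD-C at -0.94 log2 units, none of them past the threshold. The value of SACPD-C turned to 0.13 without suspensor array 1.

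The inner integument had 4 genes lower and 0 higher, where 13.9% of all probe sets were lower and 13.9% higher. ACCB-2 was 13.5-fold lower (log2 -3.76 ± 0.24, adjusted p = 2.37e-09). ACCC-3 was 2.39-fold lower (adjusted p = 5.29e-06), SAD2 1.80-fold (adjusted p = 0.0125) and ACCC-2 1.49-fold (adjusted p = 0.0259). The calls of SAD2 and ACCC-2 were lost when either inner integument array was left out. Among 11 other alternatives, that of ACCC-2 was lost under 3 and that of SAD2 under 2. The latter include the probe set shared with ACPD (adjusted p = 0.389). SACPD-C stood at 0.87 log2 units on 2 arrays far apart (adjusted p = 0.167), and at -0.06 without array 2.

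In hilum 3 genes were lower and 0 higher, where 9.19% of all probe sets were lower and 12% higher. SACPD-C was at least 3.80-fold lower, its arrays being under background (11.2-fold as measured, adjusted p = 1.49e-05). ACCC-2 was 2.26-fold lower (adjusted p = 0.000149). SAD2 was 1.72-fold lower (adjusted p = 0.0268), which was lost without hilum array 1 (adjusted p = 0.319). ACCB-2, at 0.27 log2 units, and ACCC-3, at -0.33, did not pass.

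Few of the genes were called in the remaining seed coat parts, and with 5 genes these counts do not stand apart from the shares of all probe sets. In endothelium ACCB-2 alone was lower, by 2.11-fold (adjusted p = 0.00324), where 8.8% of all probe sets were lower and 8.76% higher, and it missed the threshold without endothelium array 2 (adjusted p = 0.0919). In outer integument ACCC-2 alone was lower, by 2.02-fold (adjusted p = 0.000502), where 10.4% were lower and 11.7% higher, and it missed without outer integument array 1 (adjusted p = 0.0677). In epidermis limma called 0 of the 5, where 14.2% of all probe sets were called in either direction, and 2 had an unadjusted p under 0.05: SAD2 at -0.73 log2 units (adjusted p = 0.0501) and ACCC-2 at -0.47 (adjusted p = 0.109).

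**Figure D2:**
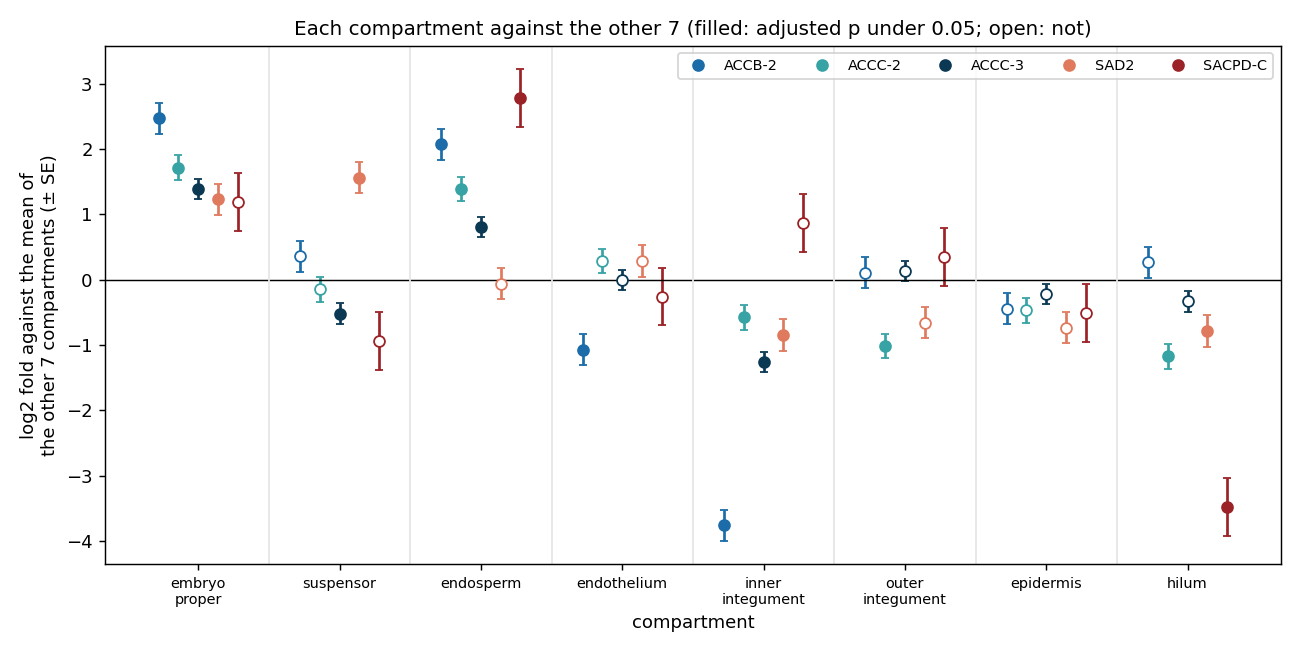
Log2 fold of each gene in each compartment against the mean of the other 7, with the standard error as the bar; filled points have an adjusted p under 0.05 and open points do not. The filled points above 0 are the carboxylase genes in embryo proper and endosperm, SAD2 in embryo proper and suspensor, and SACPD-C in endosperm, and the lowest point is ACCB-2 in inner integument at -3.76.

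Within the embryo, 4 of the 5 genes were higher in embryo proper than in suspensor and 0 lower, where 12.9% of all probe sets were higher and 11.7% lower, with a median of 1.67 log2 units beside 0 over all. ACCB-2 was 3.60-fold higher (log2 1.85 ± 0.31, adjusted p = 0.000206), ACCC-3 3.18-fold (log2 1.67 ± 0.21, adjusted p = 6.14e-06) and ACCC-2 3.10-fold (log2 1.63 ± 0.25, adjusted p = 5.86e-05). SACPD-C was 3.63-fold higher (log2 1.86 ± 0.59, adjusted p = 0.0262). That value rests on the low suspensor array 1, and without it the difference was 1.72-fold (adjusted p = 0.412). It was 7.63-fold without suspensor array 2. The call was also lost without either embryo proper array and under 2 of 10 other alternatives. SAD2 was the gene that did not pass, with the values and interval given above.

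Set against embryo proper, endosperm had 1 gene lower and 0 higher, where 12.2% of all probe sets were lower and 10.4% higher. That gene was SAD2, 2.19-fold lower in endosperm (log2 -1.13 ± 0.32, adjusted p = 0.0146). The call was lost when either embryo proper array or endosperm array 1 was left out (adjusted p up to 0.139), and by the shared probe set. SACPD-C was 2.62-fold higher in endosperm with no overlap of arrays, but missed the threshold (log2 1.39, 95% interval 0.16 to 2.63, adjusted p = 0.105). ACCC-2 was at -0.29 log2 units, with an interval of -0.81 to 0.23.

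The embryo (mean of embryo proper and suspensor) was also compared with the seed coat (mean of its 5 parts), which sets filial against maternal tissue. Of the 5 genes 4 were higher in the embryo and 0 lower, where 14.6% of all probe sets were higher and 15.9% lower, with a median of 1.20 log2 units beside -0.09 over all. ACCB-2 was 4.29-fold higher (adjusted p = 6.64e-08), SAD2 3.25-fold (adjusted p = 1.23e-06), ACCC-2 2.30-fold (adjusted p = 3.43e-06) and ACCC-3 1.60-fold (adjusted p = 0.00027). For SAD2 the lowest embryo array, 3227.7, was above the highest seed coat array, 2096.4. For the other 4 genes the arrays overlapped, since suspensor lay within the range of the seed coat. For SACPD-C embryo proper (1172.8 and 1160.0) did so too, being below inner integument array 2 (1843.5). SACPD-C did not pass (log2 0.64, 95% interval -0.09 to 1.37, adjusted p = 0.187).

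Whole seed was set against the mean of the 8 compartments, which weights each compartment equally whatever its size in the seed. Whole seed was also prepared in another way, so preparation and tissue make-up cannot be told apart here. Of the 5 genes 1 was higher and 0 lower, where 11.8% of all probe sets were higher and 7.56% lower. ACCB-2 was 1.91-fold higher in whole seed (log2 0.93 ± 0.24, adjusted p = 0.0085), a call that was lost without whole seed array 1 (adjusted p = 0.162) or array 2 (adjusted p = 0.0694). SACPD-C, at 1.23 log2 units, missed the threshold (adjusted p = 0.0589). ACCC-2 at -0.03, ACCC-3 at -0.08 and SAD2 at -0.40 log2 units lay closer to the mean of the compartments.

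The other 6 genes of the pathway were WRI1B, a WRINKLED1-type transcription factor; ACCA-1, a carboxyltransferase subunit; ACCB-1, another biotin carrier; a KAS III gene, which starts the chain; KASII-A, which makes its last extension, to stearoyl-ACP; and FATB1a, a thioesterase that releases saturated chains. All 6 passed the filter on low signals. In embryo proper 4 of the 6 were higher and 0 lower, where 12.3% of all probe sets tested were higher and 11.2% lower. Their median was 1.28 log2 units, beside -0.10 over all. In endosperm 2 were higher and 0 lower, where 15.1% of all were higher and 15.4% lower, with a median of 0.37 beside -0.10. In inner integument 1 was higher and 3 lower, where 13.9% of all were higher and 13.9% lower. Without inner integument array 2 the lower calls of ACCA-1 (adjusted p = 0.278) and WRI1B (adjusted p = 0.695) were lost, and both inner integument arrays of ACCA-1 were under background. In the embryo 3 were higher than in the seed coat and 0 lower, where 14.6% of all were higher and 15.9% lower.

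WRI1B had the widest range of the 6. Its signal was 3328.4 and 2970.2 in embryo proper, 1309.0 and 1906.4 in endosperm, and 695.2 and 661.7 in suspensor, against 12.9 to 290.7 on the 10 seed coat arrays, 7 of which were under the background percentile. With endothelium and outer integument set at background, it was 12.9-fold higher in embryo proper than in the other 7 and 5.89-fold higher in endosperm. In the embryo it was 10.7-fold higher than in the seed coat, set in the same way. The limma calls, on the signals as measured, had adjusted p = 5.3e-05, 0.0012 and 4e-06. Epidermis array 2, hilum array 1 and inner integument array 2 were also under background but were not raised to it. The folds are therefore not strict bounds and may be smaller.

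The KAS III gene had 3738.3 and 3728.6 in embryo proper and 2002.9 and 2094.7 in endosperm, against 483.1 to 1945.9 in the seed coat. It was 3.07-fold higher in embryo proper than in the other 7 (adjusted p = 6e-05) and 2.96-fold higher than in suspensor (adjusted p = 0.00126). KASII-A had its highest group mean in outer integument, at 20375.6 and 15983.8, where it was 1.60-fold higher than in the other 7 (adjusted p = 0.00228). That call was lost without outer integument array 1. Embryo proper, at 17408 and 16447.1, lay between the outer integument arrays. The step between these groups did not pass (1.07-fold, adjusted p = 0.804), so a top apart from that of the 3 carboxylase genes is not shown. KASII-A too was lower in inner integument, by 2.05-fold (adjusted p = 2.5e-05).

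FATB1a had its highest group means in inner integument and suspensor. Its lowest was in hilum (8017.5 and 8214.5), as for ACCC-2 and SACPD-C. Its signal was 18088.8 and 18257.4 in inner integument and 17973.3 and 15366.8 in suspensor, against 10918.1 and 9178.1 in embryo proper. It was 1.58-fold higher in inner integument than in the other 7 (adjusted p = 0.000961), the compartment where 4 of the 5 genes were lower, and 1.66-fold lower in embryo proper than in suspensor (adjusted p = 0.00498), which was lost without embryo proper array 2 (adjusted p = 0.081) or suspensor array 1 (adjusted p = 0.0533). ACCA-1 had 1097.8 and 1068.1 in embryo proper and 1094.1 and 1071.9 in endosperm. With inner integument set at background, each was 3.10-fold above the other 7. The limma calls, on the signals as measured, had adjusted p = 0.0428 in embryo proper and 0.0346 in endosperm. Suspensor array 1 and outer integument array 1 were also under background but were not raised to it, so these folds may be smaller. These calls of ACCA-1 were lost under 12 and 6 of the 28 alternatives. ACCB-1, at 200.4 to 613.3 on all arrays, differed in 1 of the 36 pairs of groups, against 25 for its relative ACCB-2.

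**Figure D3:**
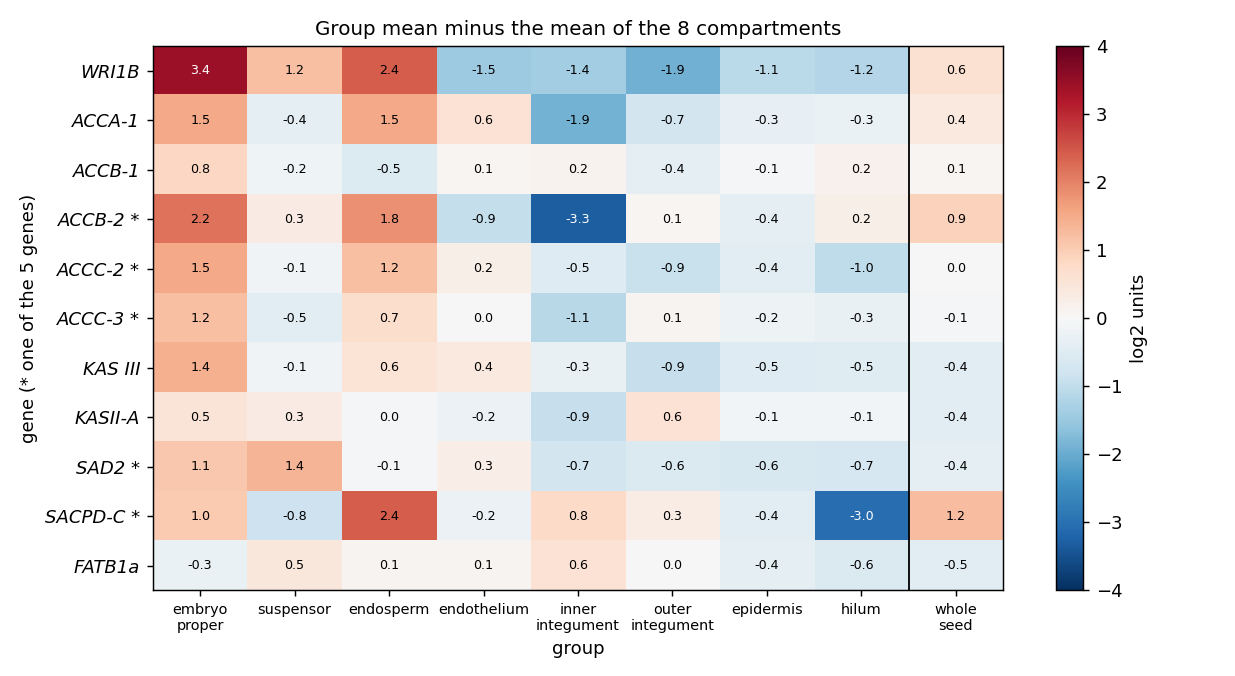
Group mean of each of the 11 pathway genes (the 5 genes marked with an asterisk) minus the mean of the 8 compartments, in log2 units, red above and blue below; whole seed stands to the right of the line. WRI1B, ACCA-1 and the carboxylase genes among the 5 are above 0 in embryo proper and endosperm. The darkest blue is ACCB-2 in inner integument, where FATB1a is above 0.

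Likeness of pattern was measured as Pearson's r of the 9 group means of log2 signal, a description over 9 points that share their arrays. Among the 5 genes r was 0.857 between ACCB-2 and ACCC-3, 0.773 between ACCC-2 and ACCC-3 and 0.593 between ACCB-2 and ACCC-2, but 0.102 between the desaturase genes SACPD-C and SAD2. SACPD-C had 0.665 with ACCC-2 and 0.23 with ACCB-2. Among the other pathway genes, ACCC-2 had 0.924 with KAS III and 0.865 with WRI1B, and ACCC-3 had 0.898 with ACCA-1. The group means of ACCA-1 are uncertain, with 132.9 and 615.9 in suspensor, 106.1 and 488 in outer integument and 1035.6 and 235.6 in whole seed. Of its 18 arrays, 4 were under background. Over the 18 arrays its r was 0.812 with ACCC-3 and 0.730 with ACCB-2.

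The most alike among 924 genes with a name were then listed, 3 for each gene. For ACCB-2 they were GF14B, a 14-3-3 protein (0.882), RPS6 (0.867) and ACCA-1 (0.848). For ACCC-2 they were SODB2 (0.907), GR (0.885) and SODB (0.879). The arrays of a group were far apart for both SOD genes, with SODB2 at 12571 and 682.6 in inner integument and at 28208.2 and 6446.2 in endothelium. SODB had 4874.6 and 162.4 in inner integument, so these group means, and the likeness that rests on them, are uncertain. For ACCC-3 they were ACCA-1 (0.898), PHD6 (0.873) and RHG1 (0.867). PHD6 read 87.8 to 237.6 on all arrays, about the level of the background percentile, and its r with ACCC-3 over the 18 arrays was 0.526.

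For SACPD-C the gene most alike was FAD3B (0.905), an omega-3 desaturase that makes linolenic acid from linoleic acid. FAD3B had 1391.0 and 1360.9 in endosperm, 1111.6 and 1128.3 in whole seed, and 782.1 and 677.6 in embryo proper, against 302.4 and 347.2 in suspensor and 182.5 and 399.2 in hilum. GRR1 (0.830) and PM23 (0.827) followed. For SAD2 they were SIP1-6 (0.941), CHI1B1 (0.931) and HO1 (0.925). SIP1-6 had 473.4 and 403.4 in suspensor and 372.8 and 350.5 in embryo proper but was under 100 on the other 14 arrays, so its likeness to SAD2 rests on the split between the embryo and the rest.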

How the data were processed

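Captures of 8 seed compartments and whole seed, 2 arrays each, were measured on the Affymetrix Soybean Genome Array. The deposited unit is intensity on a linear scale. The authors made it with GCOS 1.3, per the submitters' processing notes, and its settings are not given in the sources used here. The 2% trimmed mean was 500.1 on an array, and 12 values in all were 0. No detection calls were used.

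Of 61170 probe sets, the 23577 that are controls or belong to other organisms were not tested. Signals under 50 were set to 50 and taken to log2, and 31961 of 37593 soybean probe sets, those reaching 100 on 2 or more arrays, entered the fit. With limma 3.58.1 in R 4.3.3, lmFit and eBayes (variance trend) fitted a mean per group over all 18 arrays. Benjamini-Hochberg adjustment ran over all of them per contrast, and the threshold was 0.05. The method was tested on simulated data. Where both arrays of a group were under background (the 95th percentile of probe sets for other organisms), some folds take that percentile as the value. These folds are written "at least" or "set at background". A single array under background was not raised to it. The adjusted p beside such a fold comes from the signals as measured.

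The probe table gave 1 symbol for 8677 soybean probe sets, several for 370, and did not list 28546. Each gene was read from its brightest probe set (mean log2 signal over all arrays). The other pathway genes were found by symbol or synonym, with the KAS III gene (LOC548033) and FATB1a (FAT1) called by synonym, and probe sets of several genes were left out of counts. The genes named for likeness are the 3 with the highest r among those with 1 symbol other than a LOC number. The genes and lists were chosen with earlier results of these data known. Alternatives were other floors, filters and scaling, no variance trend, the captured arrays alone, the replicate number as a block, and other probe sets. Each array was also left out in turn. In a further setting epidermis array 2, inner integument array 1 and outer integument array 1 were left out together. Those 3 had high background (216.2, 210.2 and 199.9), but hilum array 2, with the highest (218.9), was kept in that setting. The number of arrays limits the precision. Same-numbered arrays did not deviate together: r of the deviations from group means ran from -0.0731 to 0.0829 over 36 pairs of groups. No shared shift was seen, but this cannot tell whether same-numbered arrays came from the same seeds or run. No genome coordinates were used.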

Additional observations from a re-analysis of the deposited data

How the results depend on the processing

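Of 60 results (5 genes in 12 comparisons), 29 were called. Of these, 20 stayed called in the same direction under every one of the 28 alternatives run, and 0 turned sign. Of the 31 not called, 12 were called under some alternative. The top group of each gene was the same in 28 of 28. The count of the 5 genes called in endosperm against embryo proper, 1 as reported, was 3 after quantile normalization and 0 to 3 with 1 array left out. In epidermis, 0 as reported, it was 1 with the filter at 300 and 1 after quantile normalization, and 0 to 2 with 1 array left out. In outer integument, 1 as reported, it was 2 with the filter at 300, and 0 to 2 with 1 array left out. In suspensor, 2 as reported, it was 1 with no variance trend, and 1 to 3 with 1 array left out. In whole seed, 1 as reported, it was 2 with the filter at 300 and 2 with the replicate number as a block, and 0 to 2 with 1 array left out. It was 0 to 1 in endothelium and 2 to 5 in inner integument with 1 array left out. The replicate block moved no other such count by over 1.5 times. Values that turned sign were not called in either setting (log2 units). Quantile normalization gave 0.104 for ACCC-2 and 0.08 for ACCC-3 in whole seed and -0.0295 for ACCC-3 in endothelium. Without epidermis array 2, inner integument array 1 and outer integument array 1 together, ACCB-2 in epidermis was 0.145 and ACCC-3 in endothelium -0.0138. Other probe sets gave -0.111 for ACCC-2 in endothelium, and 0.454 in endosperm and 0.306 in whole seed for SAD2. With 1 array left out, the ranges were -0.988 to 0.0922 for ACCB-2 in epidermis, -0.304 to 0.00496 for ACCC-2 in suspensor, -0.254 to 0.203 for ACCC-2 in whole seed, -0.102 to 0.102 for ACCC-3 in endothelium and -0.213 to 0.051 for ACCC-3 in whole seed. They were -0.605 to 0.0907 for SACPD-C in endothelium, -0.0598 to 1.81 in inner integument and -2.01 to 0.133 in suspensor, and -0.261 to 0.14 for SAD2 in endosperm. The cause was not tested. Signal over background limits SACPD-C in hilum and WRI1B in the seed coat, and 2 arrays a group limit all of these values.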

Other observations

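Probe sets assigned to several genes of the pathway were counted with no gene and give these values. The probe set shared by KASI and LOC548028 had 2106.3 and 1669.9 in embryo proper, against 264.0 to 947.1 on the other 14 captured arrays, and was 3.31-fold higher in embryo proper than in the other 7 compartments (adjusted p = 2.9e-05). In whole seed it had 1978.4 and 2045.9, close to embryo proper. One probe set shared by ACCA-2 and ACCA-3, carboxyltransferase subunits, had 2645.4 and 2361.7 in embryo proper, against 354.6 and 451.0 in inner integument, and was 2.69-fold higher in embryo proper than in the other 7 (adjusted p = 0.000302). In endosperm it was at 0.19 log2 units against the other 7, with a 95% interval of -0.34 to 0.72 (adjusted p = 0.604).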
